A study of Mus musculus with 4 samples.

Results

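The guanylate-binding proteins and immunity-related GTPases examined here are the products of 9 genes, *Gbp2*, *Gbp3*, *Gbp5*, *Gbp6*, *Gbp7*, *Irgm1*, *Irgm2*, *Igtp* and *Iigp1*, out of 23537 genes in the count table. They were chosen by family, and each was matched by its symbol to 1 gene of the table. RNA was sequenced from subconfluent cultures of primary mouse embryonic fibroblasts (MEFs) obtained from C57BL/6 embryos taken at day 12.5 post coitum. The study compared 2 *Mbd4*-/- samples (KO) with 2 *Mbd4*+/+ samples (WT) to ask what the loss of MBD4, a thymine DNA glycosylase with a methyl-CpG binding domain, does to transcription. No interferon, microbe or other agent is named for any sample, and the sources used here do not say how many embryos each MEF preparation came from. The p-values therefore rest on the scatter between the samples at hand, and this scatter may be technical.

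Both families are large GTP-hydrolysing proteins of cell-autonomous defence. Interferon-gamma binds its receptor, and the kinases JAK1 and JAK2 carry the signal to the gamma-activated site (GAS) of target promoters. Type I interferons act on the interferon-stimulated response element (ISRE), and interferon regulatory factors such as IRF1 bind related sequences. The induced GTPases coat the vacuoles in which parasites and bacteria such as Toxoplasma and Chlamydia grow. The guanylate-binding proteins and effectors such as IIGP1 attack these membranes, while IRGM1, IRGM2 and IGTP, known as regulators, sit on the cell's own membranes and keep the effectors inactive there. Fibroblasts make these proteins when interferon is added, and are a common cell in which to study them.

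The promoters of the members were read for both elements, because these carry the response to interferon. From RefSeq (GRCm38.p6), 8 promoters of 7 members were examined, each running from 250 bases before to 50 bases after the start site. No promoter of *Gbp6* or *Iigp1* was examined, so the counts of member promoters leave these genes out. The letters GAAANNGAA (the core of the ISRE) and TTCNNNGAA (the GAS) were searched on both strands. At least 1 ISRE core was found in 7 of the 8 member promoters and a GAS in 4 of the 8, against 8.56% and 8.3% of all 32851 promoters. *Gbp2*, the member with the highest KO level, is shown with *Igtp*, a member that rose, and with *Irgm1* and *Gbp5*, the 2 members that did not pass the test. The promoters of *Gbp2* (chr3:142620413-142620712) and *Gbp5* (chr3:142496684-142496983) are on the plus strand, as is that of *Igtp* (chr11:58199306-58199605), and that of *Irgm1* (chr11:48871371-48871670) is on the minus strand. Capitals mark each match, on either strand.
Gbp2: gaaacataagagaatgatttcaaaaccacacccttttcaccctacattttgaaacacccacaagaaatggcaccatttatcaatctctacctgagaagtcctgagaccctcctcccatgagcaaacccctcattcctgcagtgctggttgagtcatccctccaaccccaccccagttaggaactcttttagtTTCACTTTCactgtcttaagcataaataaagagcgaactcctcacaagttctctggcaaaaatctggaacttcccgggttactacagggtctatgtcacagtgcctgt
Igtp: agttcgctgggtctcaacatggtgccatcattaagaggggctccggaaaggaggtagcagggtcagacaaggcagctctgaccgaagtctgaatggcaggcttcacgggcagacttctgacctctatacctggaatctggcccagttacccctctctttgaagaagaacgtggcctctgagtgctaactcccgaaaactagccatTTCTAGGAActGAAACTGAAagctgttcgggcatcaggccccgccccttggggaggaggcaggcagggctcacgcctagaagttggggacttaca
Irgm1: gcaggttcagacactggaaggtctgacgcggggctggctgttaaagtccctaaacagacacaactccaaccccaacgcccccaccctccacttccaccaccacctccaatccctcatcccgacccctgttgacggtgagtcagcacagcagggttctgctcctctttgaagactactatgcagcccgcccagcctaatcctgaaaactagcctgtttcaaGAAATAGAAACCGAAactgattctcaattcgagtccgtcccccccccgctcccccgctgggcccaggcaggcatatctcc
Gbp5: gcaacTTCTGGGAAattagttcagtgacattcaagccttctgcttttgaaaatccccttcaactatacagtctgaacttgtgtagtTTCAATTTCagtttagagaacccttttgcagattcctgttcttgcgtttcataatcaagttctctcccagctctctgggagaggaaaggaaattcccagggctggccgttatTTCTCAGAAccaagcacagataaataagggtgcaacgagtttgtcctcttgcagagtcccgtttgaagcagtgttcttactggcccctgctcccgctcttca
*Gbp2* held 1 ISRE core, 58 bases before the start, no GAS and 2 CpG. *Igtp* held a GAS and an ISRE core with 9 CpG. *Irgm1* held 2 overlapping ISRE cores, beginning 30 and 24 bases before the start, no GAS and 11 CpG. *Gbp3*, a member that rose, also held 2 overlapping ISRE cores and no GAS in 1 of its promoters, beginning 44 and 38 bases before the start. Of all promoters 0.624% held 2 or more ISRE matches. *Gbp5* held 1 ISRE core and 2 GAS with 5 CpG, the median over all promoters being 7 CpG. ISRE cores were thus also present in the promoters of the 2 members that did not pass the test.

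In the *Igtp* promoter the GAS began 11 bases before the ISRE core. This pair, on 1 strand and at this spacing, was noticed after the sequences had been read. It occurred in 8 of all 32851 promoters (0.0244%). At least 5 of the 8 belong to GTPases of these families, and these 5 lie on chromosome 11. The GTPase promoters examined did not cover every gene of the families, so whether the rest of the 8 include further GTPases was not tested. The 5 are shown side by side as 30-base windows of GRCm38.p6 with the GAS and the ISRE core in capitals. The windows of *Igtp* (chr11:58199506-58199535) and *Irgm2* (chr11:58214897-58214926) are on the plus strand, and those of *Tgtp1* (chr11:48992310-48992339), *Tgtp2* (chr11:49064269-49064298) and *Gm12185* (chr11:48927244-48927273) on the minus strand.
Igtp: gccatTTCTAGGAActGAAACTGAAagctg
Irgm2: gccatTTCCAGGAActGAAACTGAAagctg
Tgtp1: gccatTTCCAGGAAtcGAAACTGAAaccta
Tgtp2: gccatTTCCAGGAAtcGAAACCGAAaccta
Gm12185: gccatTTCCAGGAAtaGAAAGTGAAaccta
*Igtp* and *Irgm2* both rose in KO cells. *Tgtp2* was called higher too, and *Tgtp1* (log2 fold change 0.72) and *Gm12185* (-0.24) did not pass the test, but *Tgtp1* and *Tgtp2* have mostly repeated exons and *Gm12185* overlaps *Tgtp1*, so these 3 cannot be set apart with certainty. The pair was absent from the promoters of *Irgm1* and *Gbp5*, which did not pass the test, and from those of *Gbp2*, *Gbp3* and *Gbp7*, which rose.

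The table gave 39108275 to 47567835 counts per library, and replicates correlated across genes at a Pearson r of 0.996 (KO) and 0.994 (WT) on log2 CPM (counts relative to the scaled total of a library). *Mbd4* itself had 7.85 and 7.33 CPM in KO cells and 14.8 and 15.4 CPM in WT cells, a log2 fold change of -0.99, so reads of the gene remained in both KO libraries. The sources used here do not say which part of *Mbd4* is deleted, so this count is no check of the labels. Fibroblast genes such as *Col1a1* and *Vim* were abundant in all 4 libraries. The summed level of 12 fibroblast markers was 10100 and 10900 CPM in KO and 17000 and 15300 CPM in WT cells, and most of it came from collagens and *Vim*. Of the 12, 6 were lower in KO cells, with *Dcn* and *Lum* at or near 0 there, 2 were higher (*Prrx1*, 1.92, and *Fap*, 2.10 on the log2 scale) and 4, *Pdgfra*, *Pdgfrb*, *Thy1* and *Twist1*, were not called. Macrophage markers summed to 8.77 and 8.73 CPM in KO and 7.66 and 6.86 CPM in WT cells, and 3 of the 12 (*Emr1*, *Laptm5* and *Sfpi1*) had at most 4 counts over all libraries. Of the 6 tested, *Csf1r* (1.74) and *Fcer1g* (1.07 on the log2 scale) were higher in KO cells. *Ptprc* (-4.80) and *Cd14* (-1.17) were lower, and *Cd68* and *Cx3cr1* were not called. T and natural killer cell markers summed to 4.69 and 4.46 CPM in KO and 1.54 and 1.49 CPM in WT cells, led by *Il2rb*, while *Cd3g*, *Ncr1* and *Nkg7* had at most 4 counts in all. Of the 4 tested, *Il2rb* (3.55) and *Cd8a* (2.42 on the log2 scale) were higher in KO cells and 0 were lower, and *Cd3d* and *Lck* were not called. Endothelial markers summed to 1.54 and 1.75 CPM in KO and 1.34 and 1.12 CPM in WT cells, and epithelial markers to 3.43 and 3.08 CPM in KO and 0.938 and 1.39 CPM in WT cells. Most of the epithelial sum in KO cells was *Cdh1* (mean 2.79 CPM in KO and 0.221 CPM in WT cells), while *Krt8*, *Krt18*, *Krt14* and *Cldn4* had fewer reads in KO than in WT cells and were not tested. *Krt5*, also not tested, went the other way with 6 and 5 reads in KO cells and 0 in both WT libraries, and *Epcam* was not called. In bulk RNA, fewer cells of a type and less RNA per cell cannot be told apart, and the part of these marker levels in the results on the GTPases was not tested.

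Of the 9 GTPases, 7 were higher in KO than in WT cells, 0 were lower and 2 did not pass the test at an adjusted p of 0.05 (edgeR's quasi-likelihood test, Benjamini-Hochberg over 15538 genes). Across all genes tested 34.3% were called higher and 32.5% lower, so that a call on its own was common. The same 7 members also passed an adjusted p of 0.01 with a log2 fold change over 2, which 5.79% of all genes did in the higher direction. The median log2 fold change of the 9 was 3.45, against 0.02 over all genes. All 9 passed the filter on low counts, *Gbp6* and *Iigp1* only through the KO libraries, and for a single gene the smallest two-sided p that an exact permutation test can reach with 2 KO and 2 WT samples is 0.333.

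**Figure D1:**
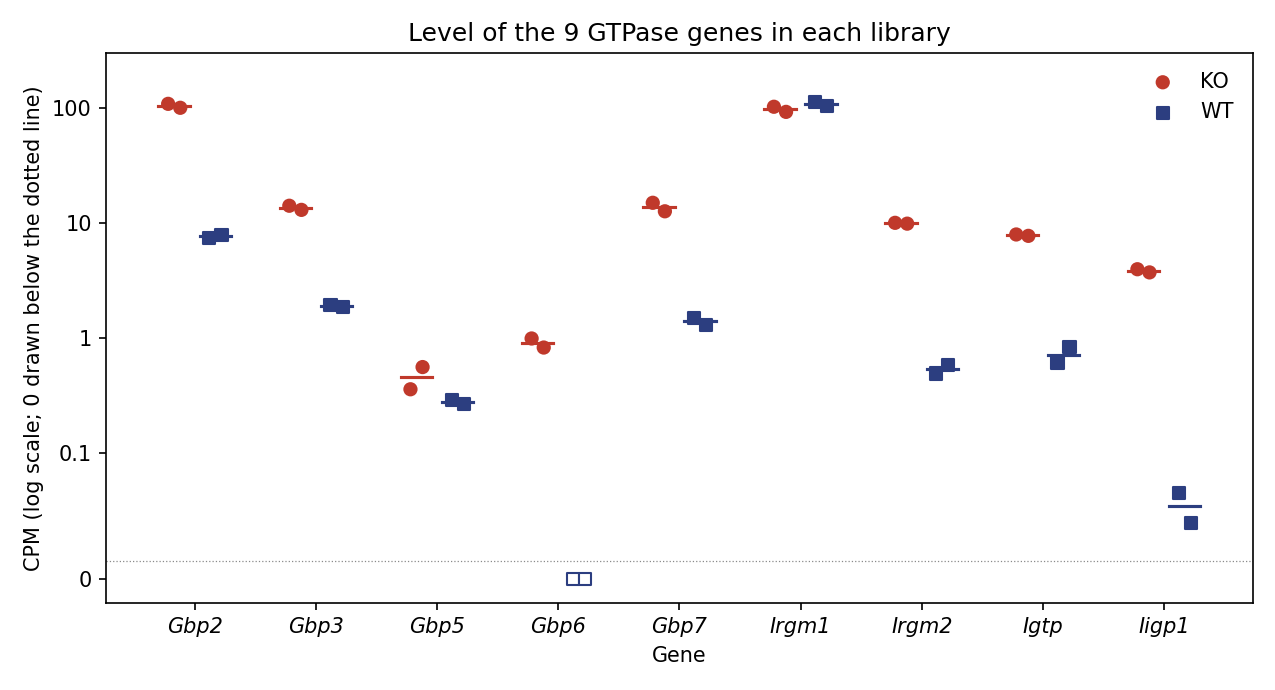
Level of each of the 9 GTPase genes in CPM on a log axis, with 1 point per library (circles KO, squares WT) and a line at the mean of 2 libraries. The KO points of 7 genes lie above the WT points by a wide gap, those of *Gbp5* lie just above and those of *Irgm1* just below, and *Gbp6* is at 0 in both WT libraries.

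*Gbp2* (ENSMUSG00000028270, mm9 chr3:142283566-142300972, plus strand), which is recruited to vacuoles of Toxoplasma and to bacteria, had 108 and 100.2 CPM in KO cells, against 7.41 and 7.86 CPM in WT cells. It averaged 104 ± 5.83 CPM in KO and 7.64 ± 0.316 CPM in WT cells (SD, n = 2 each), 13.7-fold higher. Its log2 fold change was 3.77 ± 0.08 (SE), with an adjusted p of 4.68e-13 by edgeR. Both KO libraries thus stood far above both WT libraries.

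*Gbp7* (ENSMUSG00000040253, chr3:142193302-142213047, plus strand), which in mouse macrophages takes part in assembly of the NADPH oxidase, had 14.96 and 12.6 CPM in KO cells and 1.496 and 1.29 CPM in WT cells. Its log2 fold change was 3.30 ± 0.16 (adjusted p = 9.03e-10, edgeR). *Gbp3* (ENSMUSG00000028268, chr3:142223016-142236173, plus strand) had 14.1 and 12.98 CPM in KO cells and 1.92 and 1.86 CPM in WT cells, with a log2 fold change of 2.84 ± 0.14 (adjusted p = 1.13e-09, edgeR). In both genes the KO libraries stood above the WT libraries without overlap.

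*Gbp6* (ENSMUSG00000079362, chr5:105699723-105722718, minus strand) had 47 and 34 reads in KO cells and 0 reads in both WT libraries. With a floor of 3 counts over the WT group its level was at least 26.1-fold higher in KO cells, and it passed the test (adjusted p = 3.95e-06, edgeR). In mm9, 85.4% of the 50-base windows in its exons occur elsewhere in the genome, so reads of a near-identical copy cannot be told from its own with certainty. The gene was therefore seen in KO cells only, at a low level and with an uncertain source among its copies.

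*Gbp5* (ENSMUSG00000040264, chr3:142159864-142185308, plus strand), a guanylate-binding protein that promotes assembly of the NLRP3 inflammasome, had 17 and 23 reads in KO cells and 13 and 11 reads in WT cells. That is 0.358 and 0.558 CPM in KO and 0.290 and 0.269 CPM in WT cells. Its log2 fold change of 0.69 ± 0.43 did not pass the test (adjusted p = 0.172, edgeR; 0.0998 to 0.668 over the 12 alternative settings). No difference was detected, although both KO libraries were above the WT libraries.

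*Irgm2* (ENSMUSG00000069874, chr11:58028530-58036282, plus strand), a regulatory GTPase of the Golgi, had 10.01 and 9.85 CPM in KO cells and 0.491 and 0.586 CPM in WT cells. It was 18.4-fold higher in KO cells, with a log2 fold change of 4.20 ± 0.19 (adjusted p = 3.83e-10, edgeR). *Igtp* (ENSMUSG00000078853, chr11:58013058-58021093, plus strand), which encodes the regulator also called IRGM3 and found at the endoplasmic reticulum, had 7.93 and 7.71 CPM in KO cells and 0.603 and 0.830 CPM in WT cells. Its log2 fold change was 3.45 ± 0.20 (adjusted p = 4.21e-09, edgeR). Both regulators were under 1 CPM in each WT library and over 7 CPM in each KO library.

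*Iigp1* (ENSMUSG00000054072, chr18:60535683-60552281, plus strand), an effector that is loaded onto the Toxoplasma vacuole, had 188 and 153 reads in KO cells and 2 and 1 reads in WT cells. The ratio of KO to WT was 110-fold, with an exact 95% interval of 37.3 to 535 that covers counting error only (adjusted p = 3.85e-09, edgeR). Only 5.38% of its exonic windows are repeated in the genome. The effector was thus nearly without reads in WT cells and clearly detected in KO cells.

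*Irgm1* (ENSMUSG00000046879, chr11:48675470-48685185, minus strand), the regulator needed for resistance to mycobacteria in mice, was the exception among the regulators. It had 102 and 92.3 CPM in KO cells and 112 and 104 CPM in WT cells. Its log2 fold change of -0.15 ± 0.07 did not pass the test (adjusted p = 0.0701, edgeR). It passed as lower with RLE size factors (-0.17, adjusted p = 0.0429), with no filter on low counts (-0.17, adjusted p = 0.0456) and without WT replicate 2 (-0.24, adjusted p = 0.00178), and was level when scaled by library totals (0.00013, adjusted p = 0.999). Under each of the 12 settings its change was small beside those of *Irgm2* and *Igtp*, and it was abundant in both genotypes.

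Levels of different genes were compared per kilobase of exon. In KO cells *Gbp2* came first with 43.1 and 39.8 CPM per kb, followed by *Irgm1* with 17.6 and 15.9 CPM per kb. *Gbp3*, *Igtp*, *Irgm2*, *Gbp7*, *Iigp1*, *Gbp6* and *Gbp5* followed in this order, at means of 4.18, 3.87, 2.86, 2.48, 1.23, 0.210 and 0.114 CPM per kb. In WT cells *Irgm1* came first with 19.3 and 17.8 CPM per kb, then *Gbp2* with 2.95 and 3.12 CPM per kb, and the means of the others were at or below 0.583 CPM per kb. Within each genotype the 2 libraries of 1 gene did not overlap those of the next in the order. *Irgm1* made up 23.1% and 22.6% of the summed level of the 9 genes in KO cells and 81.7% and 79.5% in WT cells. The share of *Gbp2* was 56.6% and 56.8% in KO cells and 12.4% and 13.9% in WT cells. Without *Irgm1* the other 8 genes summed to 58.5 and 54.3 CPM per kb in KO cells and to 4.33 and 4.58 CPM per kb in WT cells, so the make-up of the family differed between genotypes along with its level.

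The relatives of the members were described from a list of 25 further GTPase genes of the 2 families, the giant GTPases included, of which 19 were in the table and 15 were tested. Of the 15, 5 were higher, 2 were lower and 8 were not called, with a median log2 fold change of 0.23. Read against the 34.3% of all genes called higher, the share of relatives that rose was near the background at an adjusted p of 0.05 by edgeR. The same 5 also passed an adjusted p of 0.01 with a log2 fold change over 2, which 5.79% of all genes did in the higher direction. *9930111J21Rik1* passed these limits in the lower direction. *Gbp9*, *Gm4951* and *Tgtp2* passed the filter on low counts only through the KO libraries. With at least 10 counts in every library 1 relative was called higher. *Gm8995*, *Gbp8*, *Irgc1* and *Gm1966* had too few reads to be tested.

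*Gbp1*, which RefSeq calls *Gbp2b*, lies between *Gbp3* and *Gbp2* and had 48.7 and 47.2 CPM in KO cells and 3.59 and 4.25 CPM in WT cells (log2 fold change 3.62 ± 0.10, adjusted p = 3.78e-12, edgeR). *Gbp9*, beside *Gbp6*, had 41 and 39 reads in KO cells and 0 and 4 reads in WT cells (4.19 ± 0.62, adjusted p = 4.7e-05, edgeR). *F830016B08Rik* (2.79) and *Gm4951* (2.69), which lie near *Iigp1*, also rose. *Tgtp2*, an effector GTPase also called IRGB6, had 16 and 26 reads in KO cells and 0 in both WT libraries, at least 13.5-fold higher. In *Tgtp2* 90.6% of exonic windows are repeated, as are 83.2% in *Tgtp1*, so the reads of this pair of copies cannot be assigned with certainty.

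The 2 genes that fell, *9930111J21Rik1* and *9930111J21Rik2*, sit in the cluster of *Irgm1*. *9930111J21Rik2* had 18.7 and 17.1 CPM in KO cells and 38.0 and 41.6 CPM in WT cells, a log2 fold change of -1.15 ± 0.08 (adjusted p = 4.6e-08, edgeR), and *9930111J21Rik1* was lower by more (-2.01 ± 0.20 on the log2 scale, adjusted p = 1.09e-06, edgeR). Of their exonic windows 83.3% (*9930111J21Rik1*) and 82.5% (*9930111J21Rik2*) are repeated in the genome, and *9930111J21Rik1* overlaps *Gm12185* and a pseudogene, so its reads are uncertain. *Ifi47*, an effector GTPase also called IRGD, had 4.50 and 4.15 CPM in KO cells and 3.28 and 3.73 CPM in WT cells, and its log2 fold change of 0.30 ± 0.16 did not pass the test. *Irgq* (0.05), *Gm5431* (0.23), *Gm12250* (-0.22), *Gvin1* (-0.65) and *Gm4070* (-0.70) did not pass it either, the last 2 having 99.1% and 98.9% of their windows repeated. Among the GTPases in the cluster of *Irgm1* every call, higher for *Tgtp2* and lower for the 2 genes that fell, thus rests on genes with mostly repeated exons. The pseudogene there, *Psme2b-ps*, was called lower too (-1.98, adjusted p = 4.48e-05, edgeR), and its windows were not searched for repeats.

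**Figure D2:**
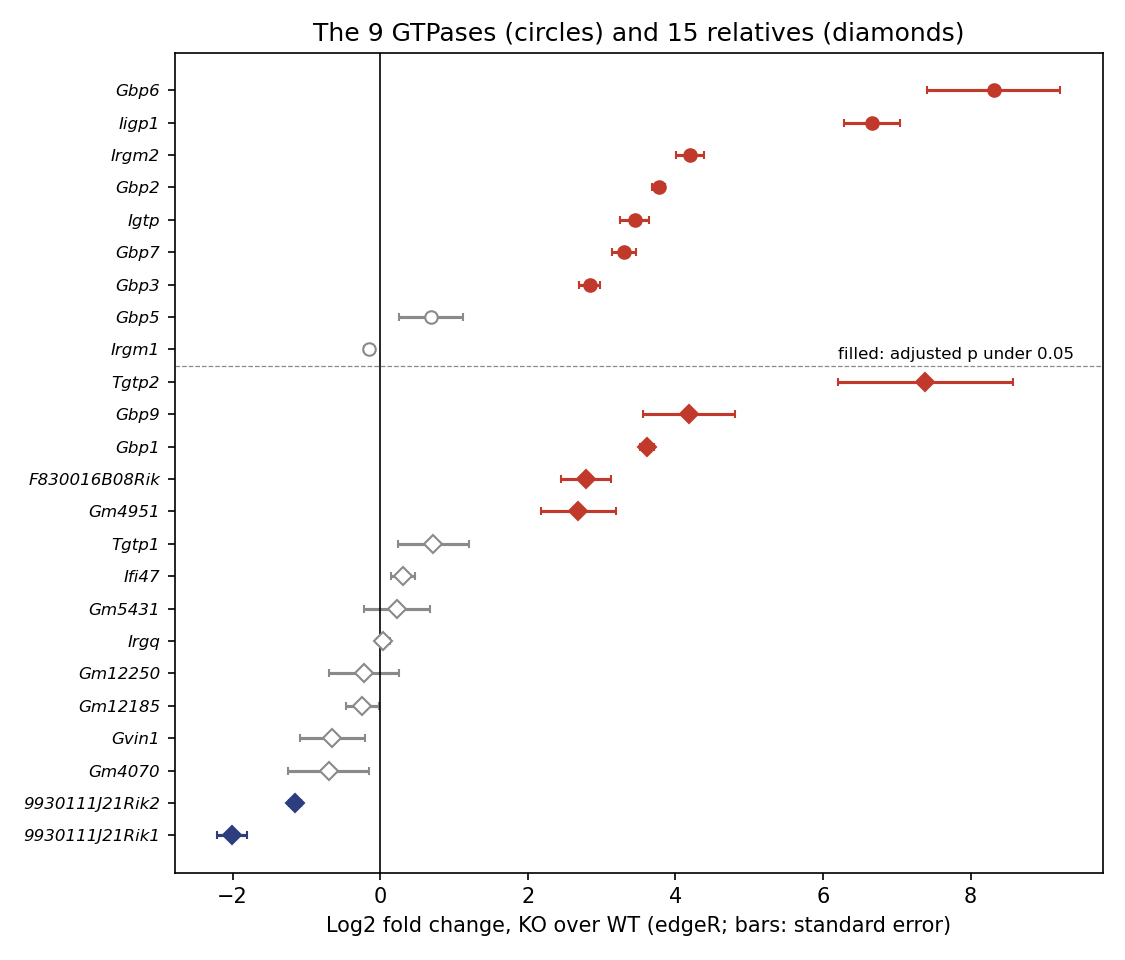
Log2 fold change of KO over WT with its standard error (edgeR) for the 9 GTPases (circles, above the dashed line) and the 15 relatives tested (diamonds). Filled red marks are higher and filled blue marks lower at an adjusted p of 0.05, and open marks did not pass. Fitted values of *Gbp6* and *Tgtp2*, with no WT read, depend on the prior count.

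The genes are grouped on the chromosomes, and the genes beside each group differed from cluster to cluster. On chromosome 3 of mm9, *Gbp5*, *Gbp7*, *Gbp3*, *Gbp1* and *Gbp2* lie in a row, and the 4 on the right had log2 fold changes of 2.84 to 3.77. The first tested gene to the left of the cluster, *Pdlim5*, a cytoskeletal adaptor 101 kb away, had a log2 fold change of -0.67. To the right *Ccbl2* (0.16, adjusted p = 0.234 by edgeR), *Gtf2b* (-0.29) and *Pkn2* (-0.36) were not called higher. *Gbp5*, at the left end of the row, was the only tested gene within it that did not pass. In the other Gbp cluster, on chromosome 5 with *Gbp6* and *Gbp9*, the nearest tested gene on each side was called higher, *Zfp951* (1.77) at 197 kb and *Lrrc8b* (0.55) at 122 kb.

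On chromosome 11 *Igtp* and *Irgm2* are neighbours, and their left neighbours *Gm12250* (-0.22), *Mrpl22* (-0.50) and *Gemin5* (-0.44) were not called higher. On the right, 84.3 kb away, *Zfp692* had 0.06 and the next gene, *Zfp672*, rose by 1.16 on the log2 scale. *Irgm1* lies in the other cluster of this chromosome, and *Trim7*, 9.8 kb beside it, had a log2 fold change of 1.77 where *Irgm1* had -0.15. Around *Iigp1* on chromosome 18, *Gm4841* (mean 0.385 CPM in KO and 0.0112 CPM in WT cells, adjusted p = 0.000245) and *Gm5970* (0.299 CPM in KO and 0 CPM in WT cells, adjusted p = 0.000494), which lie among the GTPases there, were also called higher by edgeR. Neither was on the lists of GTPases read here, and whether either belongs to the families was not examined. Both passed the filter on low counts only through the KO libraries. To the left of that cluster the nearest tested gene, *Chsy3* (-0.21, 801.6 kb away), was not called. The next ones, *Isoc1* (0.49, 1532.5 kb away) and *Slc27a6* (2.62, 1599 kb away), were higher. To the right *2010002N04Rik* (-0.80) and *Dctn4* (0.02) were not called higher. No member overlaps another annotated gene.

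**Figure D3:**
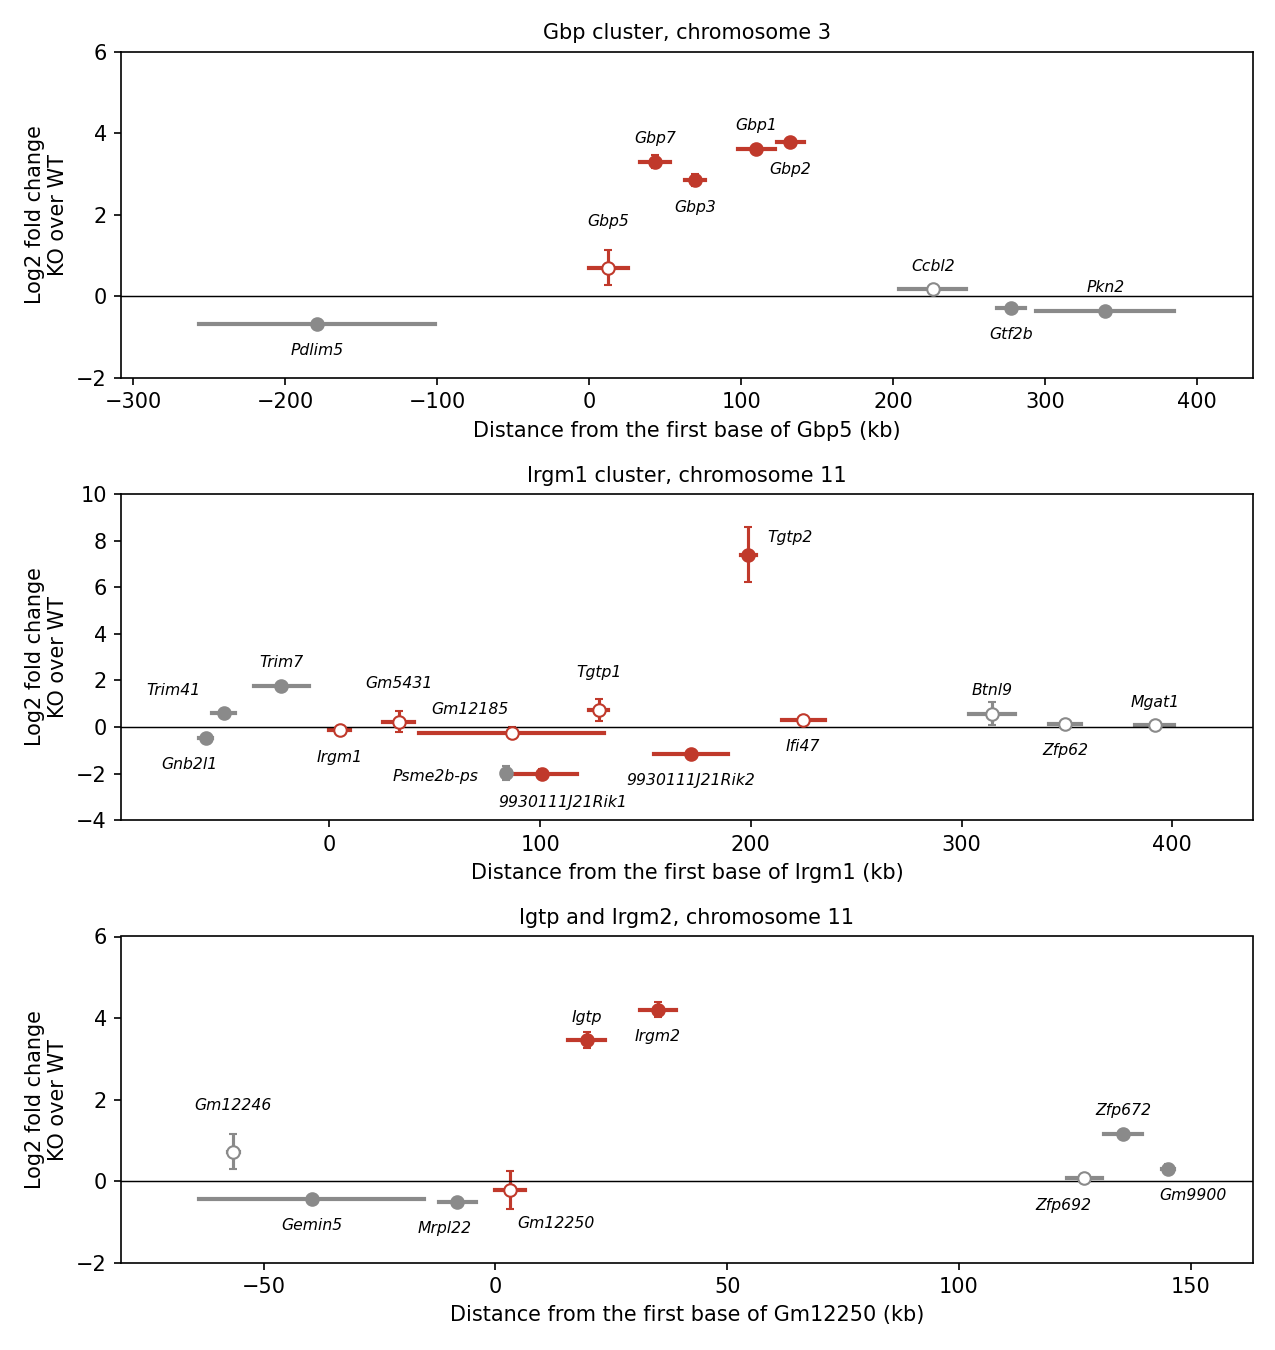
Log2 fold change of KO over WT (edgeR, bars show the standard error) against distance in kb for 3 clusters, each gene drawn as a horizontal line of its own length. GTPases are red, other genes grey, and points are filled where the adjusted p was under 0.05. *Gbp7*, *Gbp3*, *Gbp1* and *Gbp2* stand between 2.84 and 3.77 while *Gbp5* is at 0.69 and the grey genes of the panel are at 0.16 or below, and *Igtp* and *Irgm2* stand apart from *Gm12250*.

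The signalling genes upstream of the family were read from lists of the interferon pathway. Of 4 interferon-gamma receptor and kinase genes tested, 2 were higher, 1 was lower and 1 did not pass. *Jak1*, the kinase shared by both interferon receptors, had 577 and 598 CPM in KO cells and 297 and 327 CPM in WT cells (log2 fold change 0.91). *Jak2* was higher by 0.29, the receptor chain *Ifngr2* was lower (-0.87) and *Ifngr1* (-0.15, adjusted p = 0.0688, edgeR) did not pass. For the type I receptors, *Ifnar2* (-0.54) and *Ifnar1* (-0.28) were lower and their kinase gene *Tyk2* (0.44) was higher. The receptor chains that passed were thus lower and the kinases higher. Across all genes tested 34.3% were called higher and 32.5% lower, so these few calls do not set the receptor and kinase genes apart. The gene of interferon-gamma itself was not analysed here.

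Of 8 transcription factors tested, 5 were higher, 2 lower and 1 not called, with a median log2 fold change of 0.71. *Nlrc5*, the activator of MHC class I genes, had 28.1 and 24.4 CPM in KO cells and 1.74 and 2.88 CPM in WT cells (3.51 ± 0.17, adjusted p = 7.13e-10, edgeR). *Irf1*, an interferon-induced factor that binds such elements, had 60.9 and 62.3 CPM in KO cells and 34.2 and 36.8 CPM in WT cells (0.79 ± 0.07, adjusted p = 4.03e-07, edgeR). *Irf7* (1.72), *Stat2* (1.15) and *Irf9* (0.62) were higher as well, while *Irf2* (-0.40, adjusted p = 0.0385) and *Irf5* (-0.40, adjusted p = 0.0436) were lower by edgeR. Neither was called with upper-quartile scaling, library totals or DESeq2, or without KO replicate 1 or KO replicate 2. Apart from *Nlrc5*, the factors that rose had log2 fold changes below those of the 7 GTPases that rose.

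Of 9 inhibitors of the pathway tested, 3 were higher, 2 lower and 4 not called, and the median was 0.01. *Socs3*, which blocks cytokine receptors, had 144 and 148 CPM in KO cells and 49.3 and 57.0 CPM in WT cells (log2 fold change 1.46). *Usp18*, which removes ISG15 and damps the type I receptor, was higher by 1.65 from 38 and 28 reads in KO cells and 2 and 18 reads in WT cells, and *Pias1* by 0.37. *Socs2* (-0.81) and *Ptpn1* (-0.28) were lower, and *Ptpn11* (0.07) did not pass. *Socs1*, the main brake on interferon-gamma signalling, had 8.16 and 10.02 CPM in KO cells and 9.67 and 8.30 CPM in WT cells, so its groups overlapped.

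Other genes known to be induced by interferon-gamma moved in both directions. Of 19 tested, 9 were higher, 5 lower and 5 not called (median log2 fold change 0.70). The 3 largest rises were in *Xaf1* (3.91), *Tap1* (3.79) and *Tap2* (2.44), the last 2 encoding the peptide transporter of MHC class I loading, and *Tapbp*, the tapasin gene, was higher by 1.67. The largest falls were in the chemokine gene *Cxcl10* (-1.75), the immunoproteasome gene *Psmb10* (-0.83) and the caspase gene *Casp4* (-0.74). *Cxcl10* had 19 and 12 reads in KO cells and 67 and 35 in WT cells, so this interferon-gamma target moved against the GTPases.

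Of 24 genes of the type I interferon response tested, 19 were higher, 3 lower and 2 not called, with a median of 0.92. *Mx2* (3.11), *Oasl2* (2.90) and *Uba7* (2.73), the last encoding the activating enzyme of ISG15, rose most. *Ifit2* had 105 and 97.6 CPM in KO cells and 37.1 and 41.6 CPM in WT cells (1.37). *Trim25*, a ubiquitin ligase of RIG-I signalling, had 0.253 and 0.267 CPM in KO cells and 28.1 and 27.0 CPM in WT cells (-6.72), and *Isg20* (-3.21) and *Bst2* (-0.99) were lower too. The rise of most of this response is a known feature of these libraries and is no independent evidence on the GTPases.

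The conjugation system that attaches ATG8 proteins, on which the delivery of these GTPases to vacuoles depends, was not called higher more often than other genes. Of 11 genes tested, 2 were higher, 5 lower and 4 not called, with a median of -0.06. *Gabarap* (0.44) and *Atg7* (0.29) were higher, and *Gabarapl2* (-0.92), *Gabarapl1* (-0.79) and *Atg3* (-0.58) fell most, while *Sqstm1* (0.05) did not pass. Among the atlastins, dynamins and related membrane GTPases, which are large GTPases outside the interferon system, 3 of 10 were higher (*Dnm3* 1.77, *Dnm1* 1.17 and *Atl3* 1.13), 4 were lower, led by *Mfn2* (-0.89), *Opa1* (-0.52) and *Atl2* (-0.36), and 3 were not called. Their median was -0.10, below the 0.02 of all genes.

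**Figure D4:**
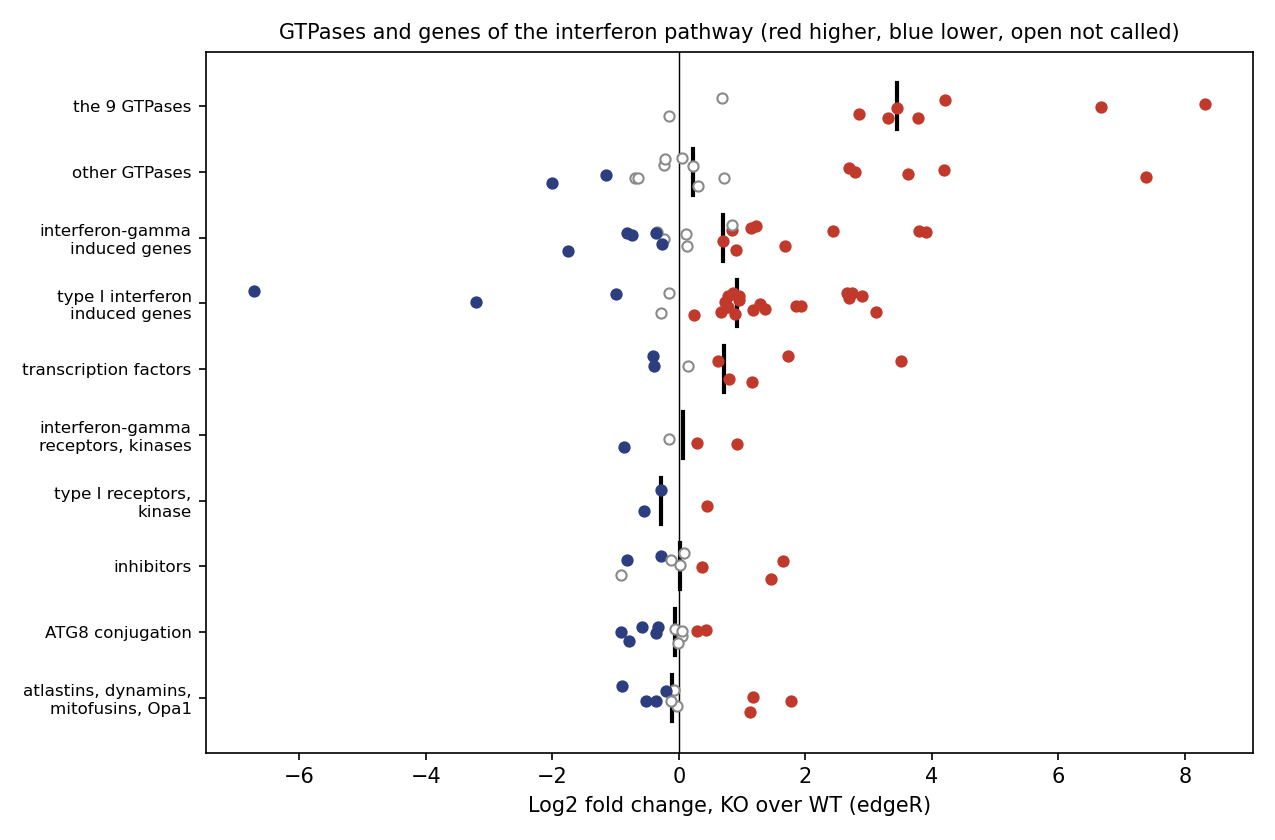
Log2 fold change of KO over WT (edgeR) for every tested gene of each list, with 1 point per gene, red for higher, blue for lower and open for not called, and a black bar at the median. The median of the 9 GTPases is 3.45, against 0.92 for the type I list, 0.70 for the interferon-gamma list and 0.01 for the inhibitors.

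The genes most like the members across libraries were found as those whose centred log2 CPM over the 4 libraries lay closest to the members' median. They were *Med12l* (distance 0.121), *Kif26a* (0.136), *Gbp1* (0.137), *2410066E13Rik* (0.151) and *Abca9* (0.153). *Abca9*, a lipid transporter gene, had 66.7 and 67.1 CPM in KO cells and 5.20 and 5.66 CPM in WT cells. With 2 genotypes this likeness rests almost wholly on the size of the difference between KO and WT, and of the 5 only *Gbp1* belongs to the family.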

How the data were processed

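Ribosomal RNA was removed from total RNA of the 4 MEF samples and stranded libraries were sequenced. The authors aligned the reads to mm9 with TopHat2 and Bowtie and deposited raw read counts per Ensembl gene from HTSeq 0.5.4p3. The strand mode of HTSeq was not given in the sources used here. Another 5 columns of values per sample and 3 columns of the authors' own comparison (a log2 ratio, a p-value and an adjusted p-value) were not used.

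Counts were fitted with edgeR 4.0.16 (R 4.3.3): filterByExpr kept 15538 genes and removed 7999, scaling was TMM, and the quasi-likelihood test had genotype as its only term with Benjamini-Hochberg adjustment. The standard error is the absolute log2 fold change over the root of the F statistic. CPM use the TMM-scaled totals. A group at 0 was set to a floor of 3 counts over the group, and with 1 to 3 counts the exact 95% interval is given. The libraries held 39108275 to 47567835 counts, and replicates differed by more than sampling noise (chi-square per gene 5.63 for KO and 11.6 for WT). Intervals and floors cover counting error only. Positions, exon lengths and repeated windows come from mm9 and its annotation, which held 23393 of the 23537 identifiers. Promoters come from RefSeq (GRCm38.p6). The fit was tested on simulated data.

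Members and lists were chosen with earlier results of these data known. Named are all members, the relatives that were tested, *Mbd4*, the 3 largest rises and falls and the most abundant gene (by KO CPM) of each list, and the 5 genes most like the members. A gene of the pathway is not reported here. Genes beside the clusters and undetected markers were named after their values were seen. Alternatives were RLE, upper quartile and library-total scaling, other filters and thresholds, DESeq2 1.42.0, limma-voom (limma 3.58.1), a block for the replicate number, and fits without each library in turn.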

Additional observations from a re-analysis of the deposited data

How the results depend on the processing

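Over the 12 alternative settings the log2 fold changes of the 7 members that rose kept their direction and their side of the threshold wherever they could be tested: 3.72 to 3.92 for *Gbp2*, 2.78 to 2.99 for *Gbp3*, 3.17 to 3.45 for *Gbp7*, 4.07 to 4.35 for *Irgm2* and 3.23 to 3.66 for *Igtp*. With at least 10 counts in every library, *Gbp6* and *Iigp1* were not tested, which left 5 members higher, and 1 relative was higher in place of 5. *Irgm1* passed as lower with RLE size factors (-0.171), with no filter (-0.172) and without WT replicate 2, so that 1 member was then called lower, and leaving out single libraries gave -0.241 to -0.079. With library totals it was at 0.00013. That scaling raised the median over all genes to 0.173 on the log2 scale, against 0.024 with TMM, and the share of higher calls to 62.6%, against 51.4%. The cause of these differences was not tested.

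Counts of called genes in the lists moved as follows. With library totals 12 other interferon-gamma induced genes were higher and with DESeq2 8, against 9. Type I genes called higher numbered 16 with at least 10 counts in every library and 17 with DESeq2, against 19. With RLE size factors 2 interferon-gamma receptor genes were lower. No transcription factor was lower (0) with upper quartile scaling, library totals or DESeq2. With library totals 1 inhibitor and 1 type I receptor gene were lower and 4 ATG8 genes were higher, and with DESeq2 1 ATG8 gene was higher. Leaving out single libraries gave 1 (without KO replicate 1) to 2 interferon-gamma receptor genes higher and 1 to 2 (without WT replicate 2) lower, 0 (without either KO replicate) to 1 (without either WT replicate) transcription factors lower, 1 (without KO replicate 1) to 3 (without WT replicate 1) inhibitors lower, and 1 to 2 (without WT replicate 1) ATG8 genes higher.

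Samples of the same replicate number showed no shared shift, as deviations of KO 1 and WT 1 from their group means correlated at -0.029. This cannot tell whether such samples were prepared together. With the replicate number as a block 5299 genes were higher and 4999 lower, against 5335 and 5045 without it. The members' calls were the same (7 higher, 0 lower). In WT cells *Gbp6* and *Iigp1* had 0 and 3 reads in all, which limits the precision of their ratios.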
